A study of Mus musculus with 21 samples.

Results

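The genes described here encode the enzymes, carriers and regulators of fatty acid beta-oxidation: 32 genes, fixed by name and taken as the rows of the gene table that carry those symbols. All 32 were among the 15216 genes that had enough reads to be tested, of 19096 genes in the deposited gene table. The table holds hearts of 21 male C57BL/6NJ mice in a study of HFpEF, heart failure in which the ejection fraction is kept. Mice aged 8 to 10 weeks ate chow or a high-fat diet (60% of energy as fat) during 10 weeks. On each diet they received either an adeno-associated virus that carries renin or, in the series' design text, a null vector. The sample titles call the second group novirus, and which wording holds was not settled here. Hearts were collected 6 weeks after the retro-orbital injection, and each library is 1 heart. The groups are chow control (chow, no renin, n = 4), chow renin (n = 6), high-fat control (high-fat diet, no renin, n = 6) and high-fat renin (n = 5). The promoter that drives the viral renin is not given in the sources used here. P-values measure the spread between hearts.

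Beta-oxidation is the main source of ATP in the adult heart. Long-chain acyl groups enter mitochondria on carnitine through CPT1, a translocase and CPT2, and CPT1 is inhibited by malonyl-CoA. Each turn of the spiral then dehydrogenates, hydrates, dehydrogenates again and cleaves the acyl-CoA, and the first step passes its electrons to the electron transfer flavoprotein. Peroxisomes run a parallel spiral on very long and branched chains, and many genes of both spirals are targets of the fatty acid receptor PPAR-alpha.

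Sequencing depth was 18.7 to 29.3 M estimated reads per library, and the 4 chow control libraries (18.7 to 21.4 M) were all shallower than the other 17, so depth and that group cannot be told apart. The hearts carried cardiomyocyte markers in every library, with a summed level in CPM (for these sums, reads scaled to the same total in every library) that was highest in chow control (median 63159.9 CPM) and lowest in high-fat renin (median 49324 CPM). CPM of single genes, given further on, also include the TMM normalization factors (0.886 to 1.09). A brown fat list of 4 genes summed to 19.1 to 21.5 CPM in chow control, 20.8 to 24.5 in chow renin, 18.3 to 29.9 in high-fat control and 27.9 to 30.6 in high-fat renin. Of that list, Ucp1 was at 0 in every chow library but not in every high-fat library. Cidea was called higher with both hits, with the diet under renin and with the averaged diet, while Zic1 was called lower with the diet under renin. Only 2 of the 4 genes had enough reads to be tested. The part of this list in the results was not tested. Atrial markers summed to 298 to 650.3 CPM in 5 libraries (chow control 3, chow renin 1 and 3, high-fat control 3 and high-fat renin 3) and to at most 40.1 CPM in the other 16. Lists for neurons, oligodendrocytes and astrocytes of the central nervous system each summed higher in the 6 chow renin libraries than in any other (neurons 144 to 242 CPM, against 33.8 to 59.8 CPM elsewhere). A score of clock genes (mean log2 CPM of night genes minus day genes) averaged 3.80 (chow control), 3.17 (chow renin), 3.45 (high-fat control) and 3.02 (high-fat renin). Each of these moves with a group or with single libraries, and the calls of the 32 genes were repeated with the scores as covariates and without the atrial libraries.

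Together the 32 genes took 1.25% to 1.71% of all reads. Their share averaged 1.602% ± 0.128 (SD, n = 6) in high-fat control. The averages were 1.39% ± 0.0414 (n = 4) for chow control, 1.396% ± 0.138 (n = 6) for chow renin and 1.38% ± 0.115 (n = 5) for high-fat renin. Mitochondrially encoded reads were also most in high-fat control (mean 36.00% of reads, against 32.6% to 33.5% in the other groups), and of the nuclear reads the 32 genes took 2.51% there and 2.07% to 2.08% elsewhere. The fits were repeated without the mitochondrially encoded genes, and 4 calls then missed the threshold. These were Hadh for renin on the high-fat diet (adjusted p = 0.0507), Cpt2 for diet under renin (0.056), and Etfdh (0.0656) and Crat (0.0671) for the averaged diet. The other 34 results that were followed stayed the same. The part of these reads was tested no further. In TPM (reads scaled by transcript length and to a fixed total, which allows genes to be compared), the highest gene was Ech1, with a mean over the group means of 886 TPM, and the lowest was Ehhadh, at 4.18 TPM. Etfb (837 TPM), Hadhb (736 TPM), Acadm (569 TPM), Acadvl (563 TPM) and Hadha (508 TPM) followed Ech1. The muscle isoform of CPT1, Cpt1b, was at 222.99 ± 5.79 TPM (SD, n = 4) in chow control, and the liver isoform Cpt1a at 11.8 ± 0.444 TPM (n = 4). The 4 peroxisomal genes were low, at 36.2 TPM for Hsd17b4, 35.1 for Acaa1a, 29.6 for Abcd3 and 4.18 for Ehhadh. Neighbours in this order often overlapped: Acadm and Acadvl, for example, ranged over 487.5 to 656.3 TPM and 487.6 to 678.7 TPM across the hearts.

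**Figure D1:**
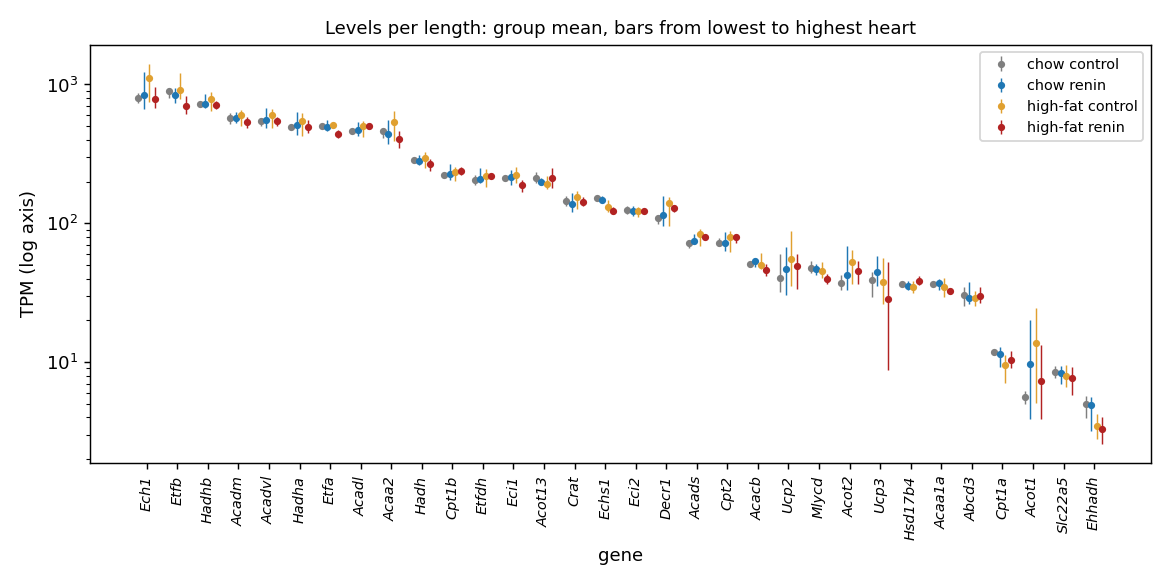
TPM on a log axis for each of the 32 genes, ordered by mean level; points are group means and bars run from the lowest to the highest heart of the group. Ech1, Etfb and Hadhb stand at the top and Cpt1a, Acot1, Slc22a5 and Ehhadh at the bottom, and group differences are small beside the differences between genes.

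Several genes share stretches of sequence with neighbours, which bears on how reads were assigned. Of all 31-base words of the Cpt1b transcripts, 79.7% also occur in Gm44502, which received 126 to 273 reads per library against 11391 to 20691 for Cpt1b. Etfb shares 47.3% with Gm45233 (3 to 33 reads), Slc22a5 35.8% with Slc22a21 (6 to 34 reads), and Acot2 29.9% with Acot1, so the split of reads between Acot1 and Acot2 is uncertain.

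Because many of these genes are known PPAR targets, the 250 bases upstream of their starts were searched for the nuclear receptor half-site AGGTCA on both strands, in RefSeq promoter windows of the build GRCm38.p6, which held 26 of the 32 genes. The half-site was present in 5 of the 26 (Acadm, Acadvl, Cpt1a, Echs1 and Ucp3), against 15.8% of 27025 genes with a window. The direct repeat with 1 base between, AGGTCANAGGTCA, the oestrogen-related receptor site TCAAGGTCA (which contains the half-site) and the E-box CACGTG were in none of the 26, and in 0.0407%, 0.422% and 6.86% of all genes. The windows below show where the half-site lies in 4 of the 5 genes described further on (none is shown for Echs1, where the stretch overlaps an annotated exon), with the half-site in capitals (as TGACCT where it lies on the opposite strand) and sequence read 5′ to 3′ along the gene; a match is a description of letters only. The stretch of Cpt1a lies before its RefSeq start but inside the gene as GENCODE, through which reads were summed to genes, places it (start at 3322334).
Acadm, chr3:153944863-153944893, minus strand: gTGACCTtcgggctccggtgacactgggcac
Ucp3, chr7:100472818-100472871, plus strand: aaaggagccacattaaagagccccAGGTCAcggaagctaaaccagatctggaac
Ucp3, chr7:100472923-100472976, plus strand: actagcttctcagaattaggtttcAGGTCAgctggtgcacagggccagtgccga
Acadvl, chr11:70015486-70015539, minus strand: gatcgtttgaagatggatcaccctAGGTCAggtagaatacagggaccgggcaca
Cpt1a, chr19:3323183-3323236, plus strand: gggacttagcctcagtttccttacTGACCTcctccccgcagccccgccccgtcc

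Ucp3 holds 2 half-sites and the 2 acyl-CoA dehydrogenase genes 1 each. Hadha and Hadhb, which encode both subunits of the trifunctional protein, start on opposite strands of chromosome 5 with 272 bases between their RefSeq starts, and closer together in GENCODE (30155162 and 30155248); the ratio of their CPM stayed between 0.981 and 1.18 in all 21 hearts.

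Several hearts stood apart from their groups in the beta-oxidation genes. Chow renin 6 lay above the other 5 chow renin hearts for 22 of the 32 genes (it was the highest of its group for 21.3% of all genes), with a median of 0.26 log2 units above them. High-fat control 4 lay below the other 5 of its group for 18 genes (lowest for 13.2% of all genes), with a median of -0.25. Ech1, for example, was at 1344 CPM in chow renin 6 and at 760.8 to 943.5 CPM in the other 5, and at 964 CPM in high-fat control 4 and at 1276 to 1652 CPM in the other 5. Of the 23 genes for which chow renin 6 left its group's range, 15 fell inside the range of the other high-fat control hearts; of the 20 for which high-fat control 4 left its own, 18 fell inside the chow control range. Chow renin 6 fell inside the high-fat renin range for 9 of the 23, and high-fat control 4 inside that of high-fat renin for 14 and of chow renin for 9 of the 20. The central nervous score of chow renin 6 was 3.58, and no heart outside the chow renin group was above 2.43. That of high-fat control 4 was 2.43, above the other 5 of its group (1.82 to 2.37), the highest of all high-fat hearts (high-fat renin reached 2.30). It lay above every chow control heart (1.36 to 1.79) and below every chow renin heart (3.44 to 4.27). Whether the labels of these 2 hearts were exchanged was not tested, and neither was reassigned; an exchange would bear on every diet and renin call. High-fat renin 1 was lowest of its group for 21 genes (25.7% of all genes), with a median of -0.27, and chow control 3, one of the atrial libraries, for 24 (28.9% of all genes). High-fat renin 1 thus lay at least as far out as high-fat control 4, and it is not in the pair left out together. Without it the calls were 5 in place of 9 for renin on the high-fat diet, 6 in place of 12 for the averaged renin effect, 2 in place of 3 both for both hits and for the diet under renin, and 6 in place of 8 for the averaged diet effect. Without chow control 3 they were 8 for renin on the high-fat diet, 14 for the averaged renin effect and 2 for renin on chow. The shares of all genes called without chow control 3 are not given here, so these counts cannot be set against them. Among genes of at least 20 CPM, chow renin 6 was highest for 29.96%, high-fat control 4 lowest for 14.4%, high-fat renin 1 lowest for 24.1% and chow control 3 lowest for 41.3%.

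Renin on the high-fat diet was the pairwise comparison with the most changed genes of the pathway. In high-fat renin hearts 9 of the 32 genes fell relative to high-fat control, none rose, and 30 of the 32 estimates were negative (median log2 fold change -0.22, against -0.01 over all genes tested). That is 28.1% of the pathway, where 11.1% of all genes tested were called in either direction and 5.08% were called lower. All of the 32 but Ehhadh average at least 20 CPM, and among the 5561 genes at that level 18.3% were called, 502 of them lower. The 9 were Etfa, Etfb, Acaa2, Mlycd, Eci1, Ech1, Acadvl, Echs1 and Hadh; for Etfa, Etfb and Eci1 the 2 groups did not overlap, and 1.52% of all genes were lower without overlap. In bulk hearts, fewer cardiomyocytes and less RNA of these genes per cardiomyocyte cannot be told apart. In this comparison 5 of 8 cardiomyocyte markers were also called lower and 1 higher, with summed levels of 43355 to 52162 CPM in high-fat renin and 52873 to 57395 CPM in high-fat control. The fibroblast list ran from 928 to 1431 CPM in high-fat renin and from 527 to 1379 CPM in high-fat control. The part of either list in the result was not tested. Without high-fat renin 1 only 5 of the 9 were called (Etfa, Etfb, Acaa2, Eci1 and Mlycd), where 4.58% of all genes were. Without the 5 atrial libraries 8 of the 9 were called, Hadh missing the threshold at a larger estimate (-0.31, adjusted p = 0.0719). Fitted with the clock score as a covariate, none of the 9 was called, nor was any of the 15216 genes; the median over the pathway was then -0.17.

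The diet alone left no single call. Against chow control, 28 of 32 estimates in high-fat control were positive (median 0.19, against 0.01 over all genes) but 0 of the 32 passed the threshold in edgeR, where 0.0657% of all genes were called; DESeq2 called 2. An unadjusted p under 0.05 was found for 18 of the 32 and for 1668 of all 15216 genes. Averaged over both vector groups, the diet effect was called for 8 of the 32 genes, 7 higher (Acads, Cpt2, Decr1, Acadl, Cpt1b, Etfdh and Crat) and 1 lower (Ehhadh), where 4.5% of all genes were called higher and 7.78% lower. Without the 5 libraries that carry atrial transcripts, 0 of those 7 were called and Ehhadh alone remained. The share of all genes called in that fit is not given here, so a loss particular to these genes and a general loss of calls cannot be told apart. The estimates of the 7 then ran from 0.13 (Etfdh and Crat) to 0.29 (Decr1), with Acads at 0.22 (adjusted p = 0.0513) and Cpt2 at 0.22. With the central nervous score in the model none of the 8 was called (71 genes of all were). With the clock score Acads and Cpt2 were still called, and Cpt1b, Crat, Acadl, Etfdh, Decr1 and Ehhadh were not (adjusted p from 0.063 to 0.189).

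Averaged over both diets, the renin effect was negative for all 32 genes (median -0.16) and 12 fell, where 8.59% of all genes were called lower. Of the 5561 genes at 20 CPM or more, 904 were called lower and 3394 were negative (median -0.03). The 12 were Etfa, Etfb, Echs1, Mlycd, Acaa2, Eci1, Crat, Acadvl, Hadh, Acaa1a, Eci2 and Acadm. In the same comparison 5 of 8 cardiomyocyte markers were called lower (median of the 8 -0.23); their part in the result was not tested. With either score as a covariate 0 of the 12 were called, where 2.71% of all genes were called with the clock score and 1.34% with the central nervous score. With the central nervous score Etfa (-0.26), Etfb (-0.34), Echs1 (-0.27) and Mlycd (-0.28) had estimates about as large as before or larger, while Acadvl (-0.10), Eci2 (-0.06), Acadm (-0.11), Crat (-0.14) and Acaa2 (-0.23) had smaller ones. With the clock score Etfa, Etfb, Echs1 and Mlycd were at -0.15, -0.15, -0.08 and -0.06. Without the atrial libraries Crat, Acadvl, Acadm, Hadh and Acaa1a were not called, with estimates of -0.23, -0.23, -0.21, -0.20 and -0.12, the other 7 were, and Abcd3 was called in addition. Without high-fat renin 1 the calls were 6, where 17.9% of all genes were called. On chow alone, renin left 28 of 32 estimates negative (median -0.10) and 0 calls in edgeR and in DESeq2. Of the 5561 genes with a mean of at least 20 CPM, 4072 were also negative (median -0.07). In this comparison 13.5% of all genes were called, and an unadjusted p under 0.05 in edgeR was found for 4 of the 32 and for 3821 of all 15216 genes, a smaller share of the pathway than of all genes. The interaction of diet and renin was called for 0 of the 32, where 10.4% of all genes were called; DESeq2 called 1. An unadjusted p under 0.05 was found for 3 of the 32 and for 3500 of all genes, again a smaller share of the pathway. That gene was Acot1, which was also the 1 call of edgeR with the clock score in the model.

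With both hits together, high-fat renin against chow control, Echs1, Ehhadh and Mlycd fell, 12 estimates were positive and 20 negative, and the median was -0.03, where 8.29% of all genes were called and 4.25% were called lower. Of 8 cardiomyocyte markers 5 were also called lower (median of the 8 -0.37), and their part was not tested. With the clock score as a covariate 0 of these 3 were called, as was no gene of all. Without the atrial libraries Etfb was called in place of Mlycd. Under renin, the high-fat diet against chow raised Hsd17b4 and Cpt2 and lowered Ehhadh, where 9.8% of all genes were called higher and 12.8% lower; 0 of these 3 were called without the atrial libraries (Hsd17b4 0.18, Cpt2 0.18 and Ehhadh -0.49) or with the central nervous score (0.12, 0.09 and 0.08). The comparisons share control hearts and are given side by side.

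**Figure D2:**
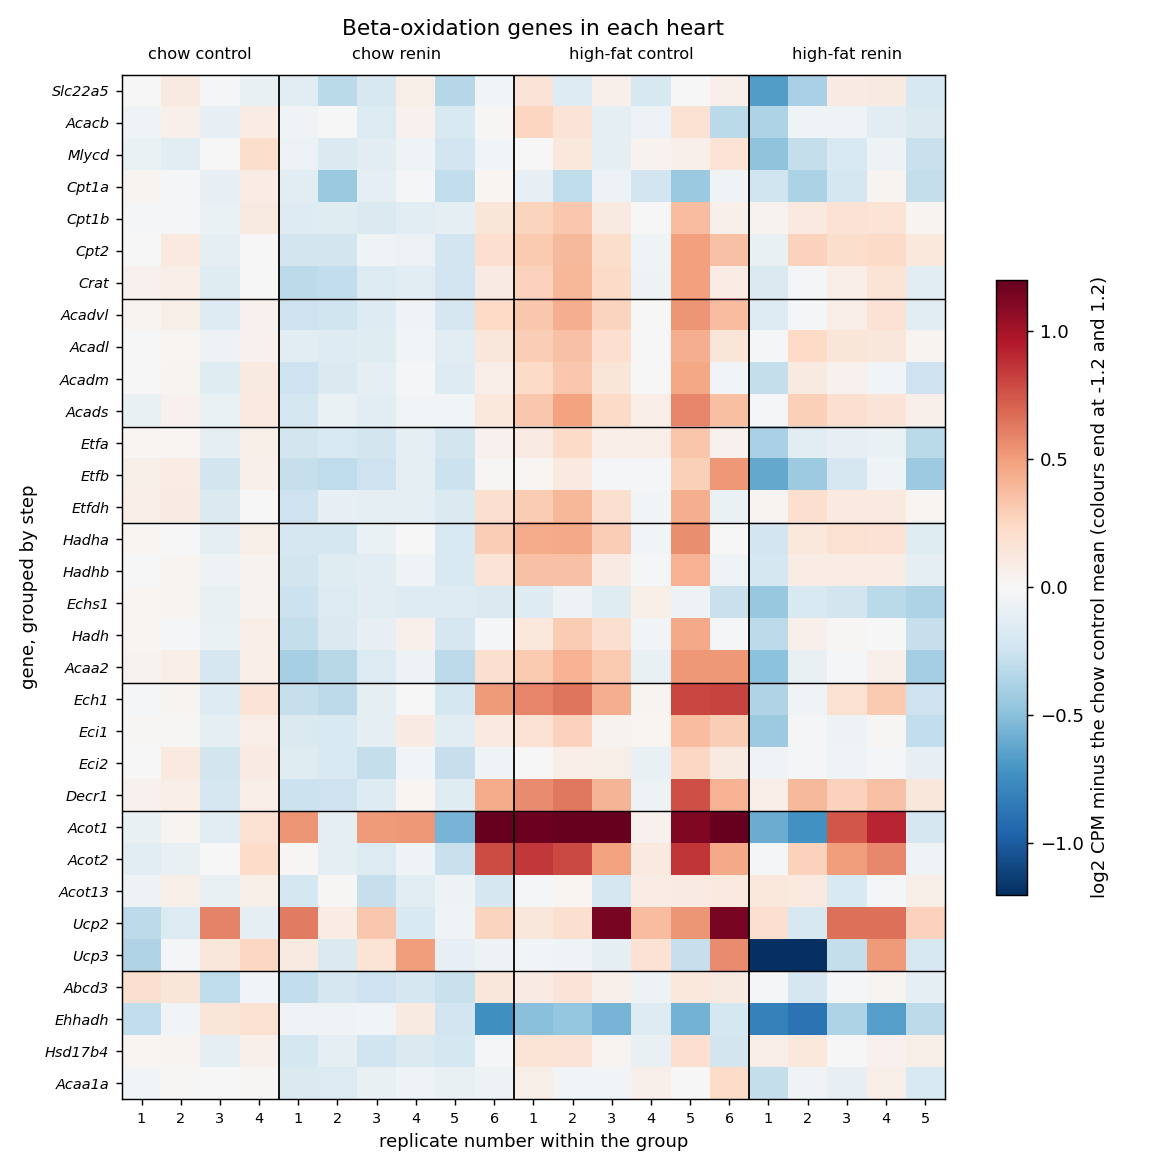
Each of the 21 hearts (columns) and 32 genes (rows, grouped by step) as log2 CPM minus the mean of the chow control hearts; colours end at -1.2 and 1.2. High-fat control hearts other than replicate 4 are red for most mitochondrial genes, chow renin replicate 6 resembles them in colour, and high-fat renin replicates 1 and 5 are blue for the electron transfer flavoprotein, Acaa2 and Ech1.

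Leaving out chow renin 6 and high-fat control 4 together, an alternative chosen after seeing the data, changed the counts. The diet alone then gave 6 calls, all higher: Decr1 (0.56, adjusted p = 0.00446), Ech1 (0.66, adjusted p = 0.00966), Acot2 (0.69, adjusted p = 0.0115), Acads, Acadvl and Cpt2. Renin on the high-fat diet gave 15 lower, the averaged diet effect 14 higher and 2 lower, the averaged renin effect 21 lower, and the diet under renin 8 higher and 1 lower. Of all genes, 0.634% were called in that fit for diet alone, 9.72% for renin on the high-fat diet, 13.6% for the averaged diet, 19.9% for the averaged renin effect and 22.02% for diet under renin. The 2 hearts were chosen for their values in these same genes, so the larger counts are a description and support nothing. No estimate in the 9 lower calls of renin on the high-fat diet changed direction, although Echs1 was no longer called (-0.17, adjusted p = 0.0703).

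**Figure D3:**
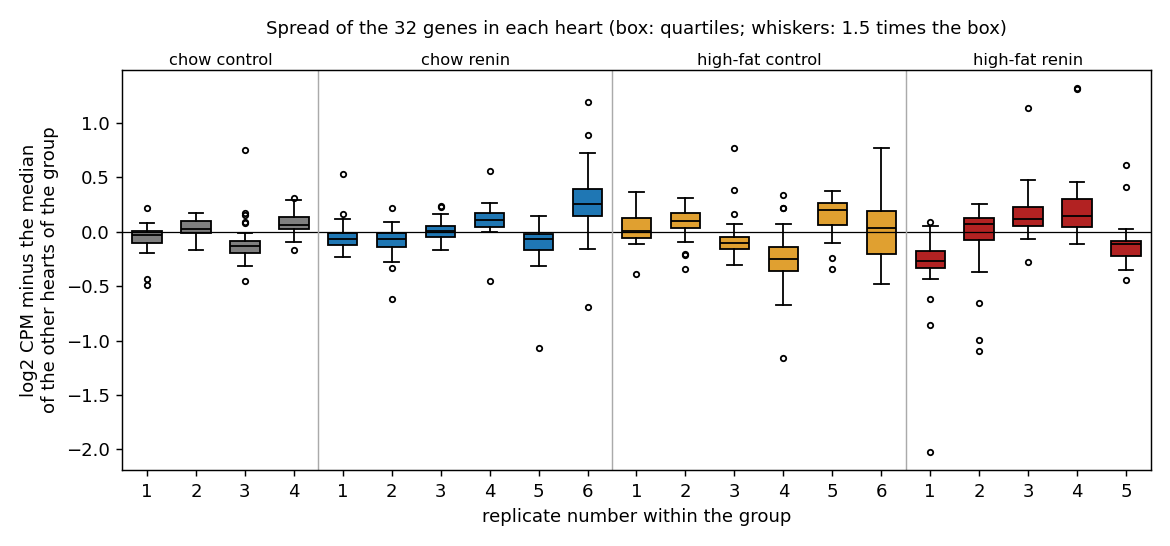
For each heart, the 32 differences in log2 CPM from the median of the other hearts of its group; boxes show quartiles, whiskers reach 1.5 times the box and circles are genes beyond them. The box of chow renin 6 lies above 0, with a median of 0.26, and those of high-fat control 4 and high-fat renin 1 lie below it, with medians of -0.25 and -0.27.

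Among the genes of entry into mitochondria, the averaged diet effect was called for Cpt1b, Cpt2 and Crat, and the renin effect for Mlycd and Crat. Mlycd, which encodes malonyl-CoA decarboxylase and so removes the inhibitor of CPT1, was at 79.1, 90.9, 97.6, 106 and 92.1 CPM in the high-fat renin hearts and at 103 to 124 (median 115) CPM in high-fat control. Its chow values were 105, 102, 110.4 and 128 CPM in control and 94.7 to 108 (median 104) CPM with renin. Of the 5 high-fat renin hearts, only replicate 4 lay above the lowest high-fat control heart. Mlycd fell with renin on the high-fat diet (log2 fold change ± SE of -0.30 ± 0.07, adjusted p = 0.00941) and with both hits together (-0.26 ± 0.08, adjusted p = 0.0434). The first call was kept without each of the 21 libraries; the second was lost without any 1 of 10 (chow control 1, 3 or 4, chow renin 4, high-fat control 2, 4 or 5, high-fat renin 1, 2 or 5), with adjusted p from 0.0503 to 0.209. It was also lost without the atrial libraries (-0.29, adjusted p = 0.0671) and without both hearts that stand apart (-0.26, adjusted p = 0.0551), at much the same estimate. With the clock score in the model the estimates were nearer 0, at -0.03 (adjusted p = 0.977) for both hits and -0.18 (adjusted p = 0.601) for renin on the high-fat diet. Acacb, whose product makes malonyl-CoA at the outer membrane, was at 385 to 574 CPM in high-fat control and 372 to 465 CPM in high-fat renin and was not called (-0.18 ± 0.09, adjusted p = 0.191).

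Cpt1b, the rate-limiting carnitine palmitoyltransferase of muscle, was at 637, 633, 608 and 694 CPM in chow control and 571 to 712 (median 584) CPM in chow renin. On the high-fat diet it was at 639 to 829.9 (median 733) CPM in control and 659, 698, 724, 722 and 657 CPM with renin. Within renin, every high-fat heart lay above 5 of the 6 chow hearts, the exception being chow renin 6. Cpt1b rose with the diet averaged over both vectors (0.20 ± 0.05, adjusted p = 0.0175), a call lost without chow control 1 or 2 or chow renin 1 or 3 (adjusted p from 0.0504 to 0.0556). Cpt1a, the liver isoform, was at 59.7 ± 3.4 (SD, n = 4) CPM in chow control and 52.3 ± 5.57 (SD, n = 6) CPM in high-fat control, and its averaged diet effect was not called (-0.12 ± 0.06, adjusted p = 0.22). The ratio of the isoforms was not tested.

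Cpt2, on the inner membrane, returns the acyl group to CoA; its values were 184, 201, 172 and 184 CPM in chow control and 158 to 212 (median 167) CPM in chow renin. They were 178 to 261 (median 233) CPM in high-fat control and 174, 224.1, 214.5, 217 and 202 CPM in high-fat renin. The lowest high-fat control value was that of replicate 4 and the highest chow renin value that of replicate 6. Cpt2 rose with the diet averaged over both vectors (0.27 ± 0.07, adjusted p = 0.00817), a call kept without each single library. It also rose with diet under renin (0.25 ± 0.09, adjusted p = 0.0463), a call lost in 15 of the 21 fits that each left out 1 library (adjusted p from 0.0505 to 0.157). It was kept without chow control 3, chow renin 6, high-fat control 4, 5 or 6 or high-fat renin 1. On all libraries it was lost with RLE (adjusted p = 0.059) or upper-quartile size factors (0.122) and with no low-count filter (0.0696). It was also lost with a transcript length offset (0.0532) and in limma (0.0945). Crat, which buffers acetyl-CoA as acetylcarnitine, ranged over 417 to 488 CPM in chow control and 369.7 to 493 in chow renin, then 441 to 647 in high-fat control and 408 to 517 with renin on that diet. It rose with diet (0.20 ± 0.07, adjusted p = 0.0495) and fell with renin (-0.21 ± 0.07, adjusted p = 0.0239), the second a call lost without chow control 1 or 2 or high-fat renin 1 (adjusted p from 0.055 to 0.0618). The diet call was lost in 17 of 21 such fits (adjusted p from 0.0579 to 0.124) and kept without chow renin 6, high-fat control 4 or 6 or high-fat renin 5. Slc22a5, the carnitine transporter of the cell membrane, was called in none of the 8 comparisons, and its averaged renin effect was -0.16 ± 0.08, adjusted p = 0.161.

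The 4 acyl-CoA dehydrogenases, which carry out the first step for chains of falling length, had positive estimates with diet and negative ones with renin in the averaged comparisons. Acadvl, the very-long-chain enzyme, was at 1099.7, 1132, 964 and 1118 CPM in chow control and 907 to 1273 (median 950.2) CPM in chow renin. Values were 1076 to 1549.8 (median 1366) CPM in high-fat control and 959, 1067, 1139, 1216 and 982 CPM in high-fat renin, so that 5 of the 6 high-fat control hearts lay above all high-fat renin hearts and replicate 4 lay among them. Acadvl fell with renin on the high-fat diet (-0.33 ± 0.09, adjusted p = 0.0266). That call was lost without high-fat control 2 (adjusted p = 0.0535) or 5 (0.0622) or high-fat renin 1 (0.087), 2 (0.0597) or 5 (0.0821). The averaged renin effect was also called (-0.22 ± 0.07, adjusted p = 0.0281), and was lost in 8 of the 21 fits without 1 library (these were chow control 1, 2 or 4, chow renin 1 or 5, high-fat control 5, high-fat renin 1 or 5, with adjusted p from 0.0509 to 0.0653).

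Acads, the short-chain enzyme, had the smallest adjusted p of the pathway for the averaged diet effect (0.27 ± 0.06, adjusted p = 0.00262). It was at 134, 148, 135 and 154 CPM in chow control and 123 to 155 (median 137) CPM in chow renin, then 151 to 213.3 (median 180.5) CPM in high-fat control and 141.3, 174, 164, 159 and 148 CPM with renin on that diet. All high-fat control hearts but replicate 4 lay above all chow control hearts. The diet alone was not called by edgeR (0.35 ± 0.08, adjusted p = 0.126). It was called by edgeR without high-fat control 4 (adjusted p = 0.0252) and by DESeq2 on all libraries (0.35, adjusted p = 0.0213). Acadl, the long-chain enzyme of rodents, rose with the averaged diet (0.21 ± 0.05, adjusted p = 0.0113), from 903 to 986 CPM in chow control and 851 to 1045 in chow renin to 946 to 1285 in high-fat control and 943 to 1123 in high-fat renin. The calls of Acads and Acadl with diet were kept without each single library. Acadm, the medium-chain enzyme, was at 1166 to 1653 CPM in high-fat control and 978 to 1292 CPM in high-fat renin; its difference there missed the threshold (-0.27 ± 0.09, adjusted p = 0.053) and its averaged renin effect passed it (-0.19 ± 0.07, adjusted p = 0.0437). Leaving out 1 library removed the second call in 13 of 21 fits (adjusted p from 0.0505 to 0.100), and it was kept without chow control 3, chow renin 4 or 6, high-fat control 4 or 6 or high-fat renin 2, 3 or 4.

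Both subunits of the electron transfer flavoprotein, which takes electrons from all acyl-CoA dehydrogenases, fell with renin on the high-fat diet, and in neither did the 2 groups overlap. Etfa, the alpha subunit, was at 531, 637, 647, 658 and 556 CPM in the high-fat renin hearts and at 719 to 873 (median 738) CPM in high-fat control (-0.35 ± 0.07, adjusted p = 0.00381). Etfb, the beta subunit, was at 299, 337, 396, 439.9 and 338 CPM in high-fat renin and 449 to 655 (median 478) CPM in high-fat control (-0.50 ± 0.10, adjusted p = 0.00422). Every high-fat renin heart was below every high-fat control heart for both subunits, replicate 4 of the controls included. On chow, Etfa was at 706, 706, 643 and 727 CPM in control and 595 to 720.2 (median 605) CPM with renin. Etfb was at 479.7, 484, 392 and 476 and 369.8 to 462 (median 382) CPM in the same groups. Neither renin effect on chow was called (Etfa -0.15 ± 0.08, adjusted p = 0.228, and Etfb -0.20 ± 0.11, adjusted p = 0.273). The interaction was not called for either (Etfa -0.20 ± 0.10, adjusted p = 0.265; Etfb -0.30 ± 0.15, adjusted p = 0.239). Both calls on the high-fat diet and both averaged renin calls were kept without each single library and lost with the clock score, where Etfa was at -0.27 and Etfb at -0.34 on the high-fat diet (adjusted p = 0.392 and 0.433). Etfdh, which passes the electrons on to ubiquinone, rose with the averaged diet (0.20 ± 0.07, adjusted p = 0.0467) and had a renin effect on the high-fat diet of -0.12 ± 0.09, adjusted p = 0.434. It was at 484 to 582 CPM in chow control and 459 to 621 in chow renin, then 516 to 734 in high-fat control and 552 to 627 with renin on that diet. Its diet call was kept in only 3 of the fits without 1 library (chow renin 6, high-fat control 4 or 6) and lost in 18 (adjusted p from 0.052 to 0.123).

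Of the genes for hydration, the second dehydrogenation and thiolysis, Echs1, Hadh and Acaa2 fell with renin on the high-fat diet and the trifunctional protein genes did not pass the test. Echs1, the hydratase for short chains, was at 251, 253, 233 and 254 CPM in chow control and 181, 218, 213.1, 198 and 191 CPM in high-fat renin, with no overlap (-0.31 ± 0.07, adjusted p = 0.00537; 5.07% of all genes were lower without overlap). It was at 206.7 to 225.6 (median 222) CPM in chow renin, below every chow control heart, as 4.75% of all genes were, but not called (-0.17 ± 0.06, adjusted p = 0.0718), and at 206 to 259.9 (median 230.1) CPM in high-fat control. High-fat control 4 was the highest of all 21 hearts for Echs1, the reverse of its place in most of the pathway. The fall against high-fat control (-0.21 ± 0.06, adjusted p = 0.0277) was lost without high-fat control 2 (adjusted p = 0.0505), 4 (0.0632) or 5 (0.0502) or high-fat renin 1 (0.106) or 5 (0.0828), while the fall against chow control was kept without each library.

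Acaa2, the mitochondrial thiolase that releases acetyl-CoA, was at 503, 665, 696, 738 and 533 CPM in high-fat renin and 666 to 1012 (median 912) CPM in high-fat control (-0.52 ± 0.12, adjusted p = 0.00831). Its chow values were 728, 749, 613 and 748 CPM in control and 538 to 807 (median 600.2) CPM with renin. All high-fat renin hearts lay below 5 of the 6 high-fat controls, and high-fat control 4 lay within the high-fat renin range. The fall was kept without each single library, and so was the averaged renin effect (-0.34 ± 0.09, adjusted p = 0.00655). Hadh, the short-chain hydroxyacyl-CoA dehydrogenase, ranged over 529 to 742 CPM in high-fat control and 437 to 565 CPM in high-fat renin (-0.27 ± 0.09, adjusted p = 0.0467). Its call was lost in 12 of the 21 fits without 1 library (any chow control, chow renin 2, 3 or 5, high-fat control 2, 3 or 5, high-fat renin 1 or 5, with adjusted p from 0.0514 to 0.156). The averaged renin effect of Hadh (-0.19 ± 0.06, adjusted p = 0.0336) was lost in 11 (chow control 1, 2 or 4, chow renin 1, 2, 3 or 5, high-fat control 2 or 5, high-fat renin 1 or 5, with adjusted p from 0.053 to 0.0782). Hadha, at 1378, 1771, 1841, 1827 and 1464 CPM in high-fat renin and 1585 to 2379 (median 2096) CPM in high-fat control, had -0.27 ± 0.11, adjusted p = 0.116, and Hadhb had -0.21 ± 0.09, adjusted p = 0.125. The interval of the Hadha difference ran from -0.49 to -0.05 (95%, normal approximation), so a fall like that of Etfa is inside it.

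Unsaturated chains need auxiliary enzymes, and of the 4 measured, Ech1 and Eci1 fell with renin on the high-fat diet and Decr1 rose with the averaged diet. Ech1, a dienoyl-CoA isomerase, was at 928, 965, 846 and 1052 CPM in chow control and 964 to 1652 (median 1445) CPM in high-fat control. With renin it was at 761 to 1344 (median 842) CPM on chow and 738, 920.0, 1072, 1173 and 794 CPM on the high-fat diet. High-fat control hearts other than replicate 4 lay above all chow control and all high-fat renin hearts. Ech1 had the largest fall of the 9 called genes, -0.58 ± 0.15, adjusted p = 0.0202, a call lost without high-fat renin 1 (adjusted p = 0.0700), 2 (0.0508) or 5 (0.0659). The diet alone was not called (0.57 ± 0.17, adjusted p = 0.196) and the interaction missed the threshold (-0.54 ± 0.23, adjusted p = 0.148).

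Eci1, an enoyl-CoA isomerase, was at 155, 208, 200.2, 211 and 170.0 CPM in high-fat renin and 212.6 to 271 (median 245) CPM in high-fat control, without overlap (-0.35 ± 0.08, adjusted p = 0.0103), and that call was kept without each single library. The highest high-fat renin heart and the lowest high-fat control heart (replicate 4) were close, at 211 and 212.6 CPM. Decr1, the dienoyl-CoA reductase, was at 384, 392, 323 and 393 CPM in chow control and 311 to 507 (median 335) CPM in chow renin, then 358 to 637 (median 524) CPM in high-fat control and 393, 487, 452, 475 and 408 CPM with renin on that diet. Its highest chow renin heart was replicate 6, at 507 CPM, and its lowest high-fat control heart replicate 4, at 358 CPM. Decr1 rose with the averaged diet (0.38 ± 0.09, adjusted p = 0.0105), kept without each single library, and was not called for renin on the high-fat diet (-0.23 ± 0.13, adjusted p = 0.272). Eci2, a second enoyl-CoA isomerase, fell in the averaged renin effect (-0.14 ± 0.05, adjusted p = 0.0377), from 144 to 183 and 157 to 199 CPM in the controls to 138 to 164 and 156 to 166 CPM with renin, for the chow and high-fat groups in turn. That call was lost in 11 of 21 fits without 1 library (these were chow control 1, 2 or 4, chow renin 1, 2, 3 or 5, high-fat control 2 or 5, high-fat renin 1 or 5, with adjusted p from 0.0517 to 0.108).

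**Figure D4:**
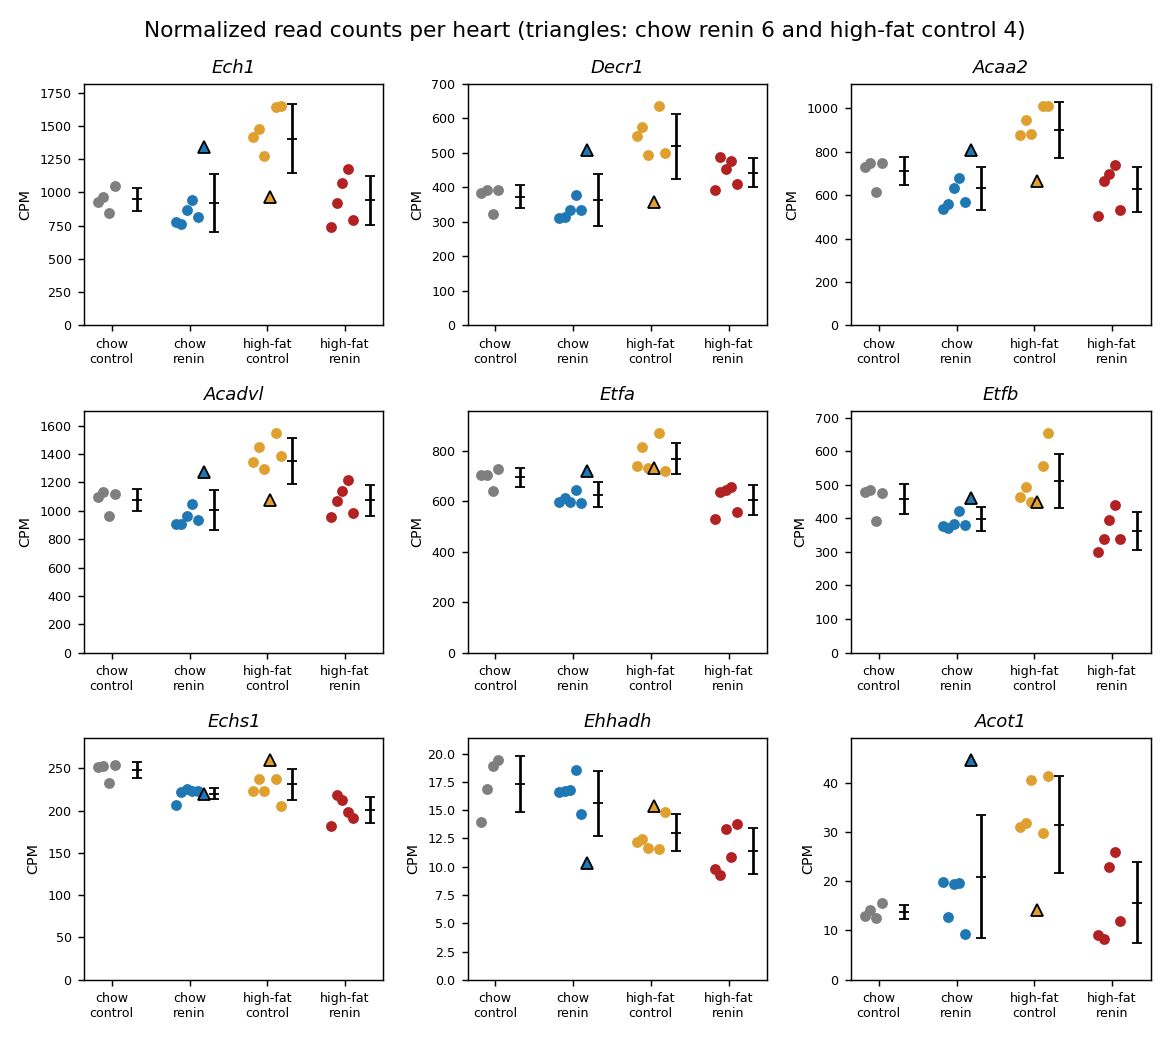
CPM of 9 genes in every heart, with group means ± SD as bars beside the points; triangles mark chow renin 6 and high-fat control 4. For Etfa and Etfb all 5 high-fat renin hearts lie below all 6 high-fat control hearts, while for Ech1, Decr1, Acaa2 and Acot1 the triangles lie with the points of other groups.

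The thioesterases and uncoupling proteins, which act beside the spiral, had no call in any of the 8 comparisons in the main edgeR fit over all 21 libraries. Acot1 was called lower for the interaction by DESeq2 and by edgeR with the clock score. Acot2 was called higher for diet alone in the fit without chow renin 6 and high-fat control 4. Acot1, a cytosolic acyl-CoA thioesterase and a known PPAR-alpha target, was at 12.9, 14.1, 12.6 and 15.6 CPM in chow control and 14.2 to 41.3 (median 31.4) CPM in high-fat control. With renin it was at 9.3 to 44.6 (median 19.6) CPM on chow and 9.1, 8.27, 23, 25.9 and 11.9 CPM on the high-fat diet. Of the 6 high-fat controls, 5 lay above all chow controls, and replicate 4 lay among them. The diet estimate was the largest of the pathway (1.19 ± 0.42, adjusted p = 0.318), the renin estimate on the high-fat diet was -1.004 ± 0.38, adjusted p = 0.0976, and the interaction was -1.61 ± 0.57, adjusted p = 0.0832. Acot2, its mitochondrial neighbour on chromosome 12, was at 82.3 to 105 CPM in chow control and 75.5 to 156 in chow renin, then 98.4 to 164 in high-fat control and 87.3 to 135 with renin on that diet, with an averaged diet effect that just missed the threshold (0.40 ± 0.13, adjusted p = 0.0501). Acot13 had an averaged diet effect of 0.10 ± 0.05, adjusted p = 0.224.

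Ucp3, the muscle uncoupling protein, was at 21.2, 40.4, 83.8, 145 and 89.2 CPM in the high-fat renin hearts and 84.3 to 151 CPM in high-fat control. High-fat renin 1 and 2 lay below all other hearts and replicate 4 near the top of the range of all hearts. The estimate, -0.49 ± 0.33, adjusted p = 0.367, has an interval of -1.14 to 0.15 and does not settle a direction. Ucp2, which many cell types besides cardiomyocytes express, was at 38.8, 43, 72.5 and 44.4 CPM in chow control and 42.3 to 73.9 CPM in chow renin, then 53.1 to 106 CPM in high-fat control and 55.4, 42.2, 76.3, 75.9 and 58.2 CPM with renin on that diet. The highest heart was an atrial library in all 4 groups: replicate 3 in chow control, high-fat control and high-fat renin and replicate 1 in chow renin. In the high-fat groups a heart without atrial transcripts was all but level with it, at 105.9 against 106.1 CPM (high-fat control 6 and 3) and 75.9 against 76.3 CPM (high-fat renin 4 and 3). Its diet estimate was 0.60 ± 0.24, adjusted p = 0.383.

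The peroxisomal genes changed in different comparisons: Ehhadh fell with diet, Hsd17b4 rose with diet under renin, Acaa1a fell with renin, and Abcd3 was not called. Ehhadh, the bifunctional enzyme with L-specificity and a classical PPAR-alpha target, was at 14, 16.8, 18.9 and 19.4 CPM in chow control and 9.78, 9.28, 13.3, 10.9 and 13.8 CPM in high-fat renin, with no overlap (-0.60 ± 0.15, adjusted p = 0.0146). It was at 10.3 to 18.5 (median 16.7) CPM in chow renin and 11.6 to 15.4 (median 12.3) CPM in high-fat control. Chow renin 6 was the lowest of its group and high-fat control 4 the highest of its own, each the reverse of its place for most mitochondrial genes. Ehhadh fell with the averaged diet (-0.43 ± 0.10, adjusted p = 0.005), a call kept without each single library, without the 5 atrial libraries and without both hearts that stand apart. It was lost with the clock score (-0.37, adjusted p = 0.0716) or the central nervous score (-0.25, adjusted p = 0.69). Its call against chow control was lost without chow control 4 (adjusted p = 0.0629). Under renin it fell on the high-fat diet (-0.45 ± 0.13, adjusted p = 0.0168), and that call was lost without high-fat renin 2 (adjusted p = 0.0569), without the atrial libraries (at a larger estimate of -0.49, adjusted p = 0.0509) and, with the central nervous score in the model, turned to 0.08 (adjusted p = 0.999939).

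Hsd17b4, the D-specific bifunctional enzyme, was at 116, 120.1, 111, 114 and 116 CPM in high-fat renin and 93.5 to 108 (median 96.5) CPM in chow renin, with no overlap (0.23 ± 0.07, adjusted p = 0.014; 5.55% of all genes were higher without overlap). That call was lost without chow renin 1, 3 or 5 or high-fat renin 1 (adjusted p from 0.0633 to 0.0782), without the atrial libraries (0.171) and with the central nervous score. It was also lost with upper-quartile size factors (adjusted p = 0.0529). In the absence of renin it was at 112, 113, 101 and 115 CPM on chow and 94.4 to 127 CPM on the high-fat diet (0.05 ± 0.07, adjusted p = 0.862). Acaa1a, the peroxisomal thiolase, was at 64.3 to 66.5 and 64.1 to 76.3 CPM in the controls and 58.3 to 63.5 and 53.7 to 69 CPM with renin, for the chow and high-fat groups in turn. Its averaged renin effect was small (-0.13 ± 0.04, adjusted p = 0.0365) and was lost in 9 of 21 fits without 1 library (these were chow control 1, 2 or 4, chow renin 1, 2 or 3, high-fat control 6, high-fat renin 1 or 5, with adjusted p from 0.0502 to 0.0757). Abcd3, which imports acyl-CoA into peroxisomes, had an averaged renin effect of -0.17 ± 0.06, adjusted p = 0.0503. By compartment, none of the 9 genes that fell with renin on the high-fat diet is among the 4 peroxisomal genes, although Ech1 and Mlycd are known from several compartments, and the difference between compartments was not tested.

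**Figure D5:**
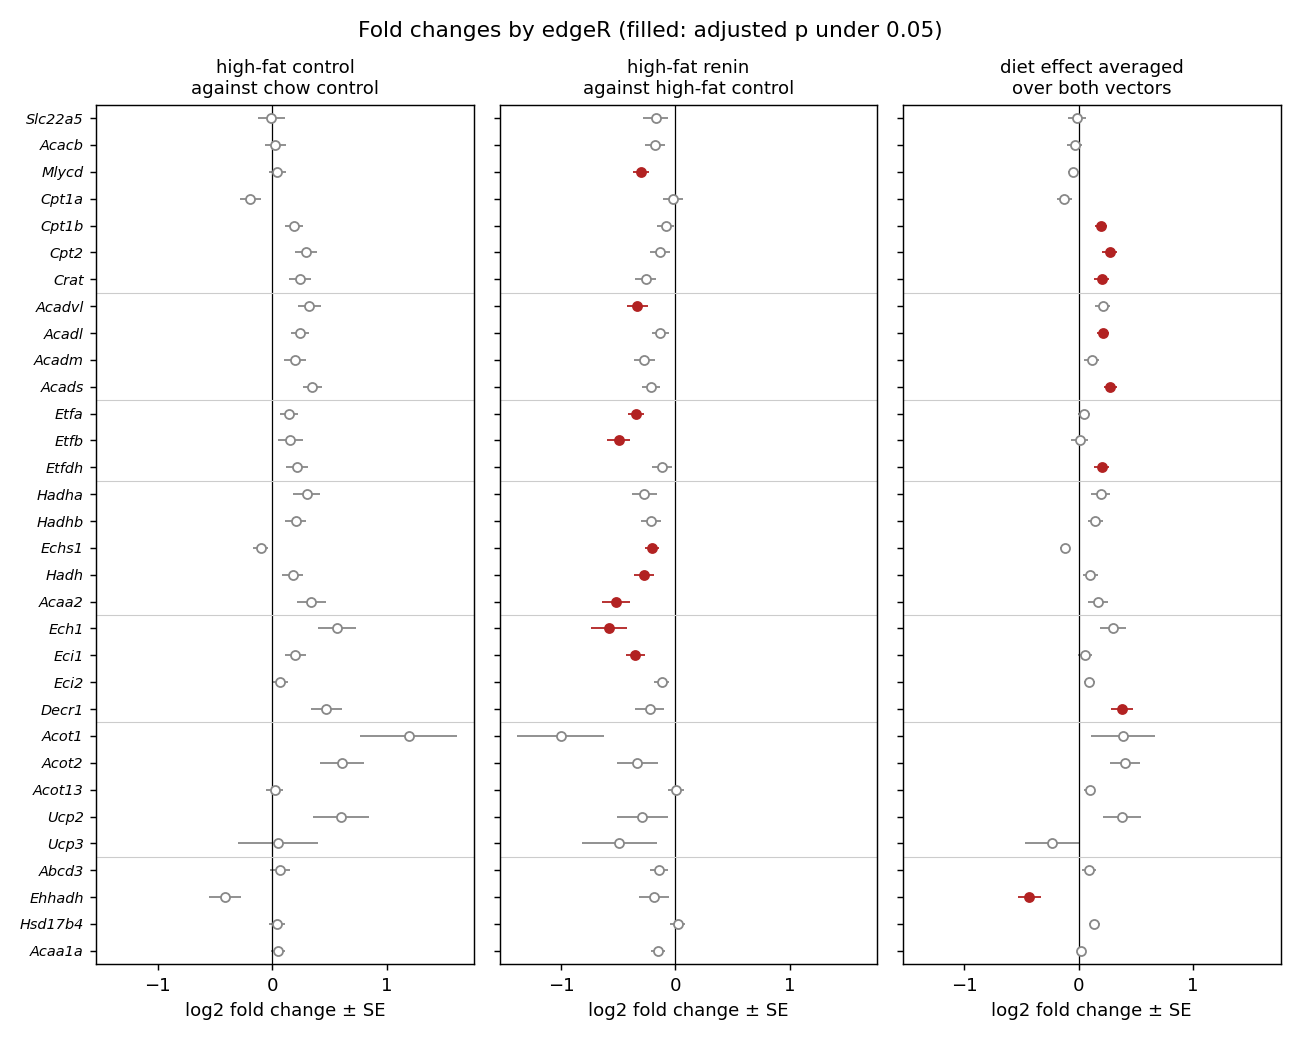
Log2 fold changes ± SE from edgeR for the 32 genes in 3 comparisons; filled red points have an adjusted p under 0.05. In the left panel (diet alone) no point is filled although most lie right of 0, in the middle panel (renin on the high-fat diet) 9 filled points lie left of 0, and in the right panel (averaged diet) 7 filled points lie right of 0 and Ehhadh lies left.

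The pathway's other genes were read from a list of 38, of which 34 were tested. With renin on the high-fat diet 5 fell and 2 rose, where 11.1% of all genes were called. Hsd17b10, a mitochondrial hydroxyacyl-CoA dehydrogenase, had -0.36 ± 0.06, adjusted p = 0.0013. Pccb, a subunit of propionyl-CoA carboxylase, had -0.35 ± 0.07, adjusted p = 0.00204, and Echdc2 had -0.42 ± 0.09, adjusted p = 0.005, while Crot, the peroxisomal carnitine octanoyltransferase, rose (0.23 ± 0.06, adjusted p = 0.0211). The median over the 34 was -0.07. With the averaged diet Slc25a20, the carnitine-acylcarnitine translocase that works between CPT1 and CPT2, rose (0.34 ± 0.07, adjusted p = 0.00199), and Acaca (-0.38 ± 0.06, adjusted p = 0.000443), Hsd17b10 and Acot7 fell. These are 1 higher and 3 lower of 34, near the 4.5% and 7.78% of all genes. With the averaged renin effect 9 fell and 1, Acaca, rose, where 20.6% of all genes were called.

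Of 10 PPAR target genes outside the 32, 4 rose with the averaged diet and 1 fell, where 4.5% of all genes were called higher and 7.78% lower. Fabp3, the fatty acid carrier of heart muscle, had 0.40 ± 0.06, adjusted p = 8.9e-05. Cd36, the fatty acid translocase, had 0.22 ± 0.05, adjusted p = 0.00702, and Lpl fell (-0.27 ± 0.07, adjusted p = 0.0191). With renin on the high-fat diet 1 of the 10 was called, near the 11.1% of all genes: Plin5, a lipid droplet protein (-0.36 ± 0.10, adjusted p = 0.0286). Among 13 regulators, 4 fell and 1 rose in the averaged renin effect, where 20.6% of all genes were called. Esrra, the estrogen-related receptor alpha, fell with renin averaged over the diets (-0.26 ± 0.05, adjusted p = 0.00117) and on the high-fat diet (-0.25 ± 0.07, adjusted p = 0.0301), and Rxra fell on the high-fat diet (-0.31 ± 0.08, adjusted p = 0.0131). On chow, Esrra and Rxrg were called lower with renin, 2 of the 13 regulators, where 13.5% of all genes were called. Ppargc1a, the coactivator of mitochondrial genes, fell in the averaged renin effect (-0.32 ± 0.10, adjusted p = 0.0223), as did Rxrg (-0.28 ± 0.06, adjusted p = 0.00342) and Rxra. Hif1a, the hypoxia-inducible factor, rose (0.25 ± 0.09, adjusted p = 0.0477), and Ppara was not called (-0.05 ± 0.25, adjusted p = 0.914). Calls of genes outside the 32 come from the main edgeR fit alone. Whether they are kept with libraries left out or with the score covariates is not given here.

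The authors' deposited table of the combined hit (its reference group is not stated in the sources used here) lists 5 of the 32 genes at an adjusted p under 0.05, all lower. In the authors' deposited table Echs1 stood at a log2 fold change of -0.28 (adjusted p = 0.000334), Ehhadh at -0.44 (0.00505), Mlycd at -0.20 (0.028), Etfb at -0.25 (0.0288) and Acaa1a at -0.15 (0.0447). Echs1, Ehhadh and Mlycd are also the 3 genes called in the fit of high-fat renin against chow control reported above.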

How the data were processed

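Heart RNA of 21 mice was sequenced, 1 library per heart. The authors' deposited transcript files hold estimated counts and TPM in the layout Salmon writes, per the file headers. The submitters' processing notes name Salmon 1.10.2, DESeq2 1.40.2 and the builds GRCm38 and mm10, with no role given. The deposited gene table holds normalized signal per gene, and the authors' deposited comparison table holds log2 fold changes and p-values.

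Estimated counts were summed to genes by GENCODE M21 transcript IDs and rounded. Genes that passed filterByExpr were normalised with TMM factors and fitted with edgeR 4.0.16 (R 4.3.3) by the quasi-likelihood F test over all 21 libraries, with Benjamini-Hochberg adjustment over 15216 genes and a threshold of 0.05. CPM compares groups and TPM compares genes; the approximate 95% interval is 1.96 SE to each side. The scripts were tested on simulated data. Alternatives were other size factors, filters, left-out libraries, a fit without mitochondrially encoded genes, a transcript length offset, a replicate block and score covariates. Others were DESeq2 1.42.0 and limma 3.58.1 on log2 of the signal plus 1. Reads of transcripts with no matched gene (0.854% to 0.925%) were left out.

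The members and all gene lists were chosen with earlier results of these data known. Described with their values are the 21 genes called in at least 1 of 8 comparisons and 11 fixed genes (Cpt1a, Cpt1b, Ucp2, Ucp3, Acot1, Acot2, Acadm, Acadvl, Hadha, Acacb and Mlycd), 28 in all; Slc22a5, Hadhb, Acot13 and Abcd3 are given by 1 test each. From other lists up to 4 called genes per direction were eligible, by smallest adjusted p. A gene of the PPAR target list is not reported here by name.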

Additional observations from a re-analysis of the deposited data

Results flagged for a closer look

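In 13 of 112 groups of hearts tested, 1 heart lay far from the rest by Dixon's gap test, where chance flags about 1 in 20 independent tests. These tests are not independent, as they cover 28 genes in the same 4 groups of hearts. Chow renin 6 had 7 of the flags, chow control 3 had 5 and chow renin 1 had 1. Chow renin 6 was far above its group for Cpt1b (712.4 CPM), Cpt2 (212.4 CPM), Etfdh (621.1 CPM), Ech1 (1344 CPM), Decr1 (507.2 CPM), Acot1 (44.58 CPM) and Acot2 (155.7 CPM). Chow control 3, which carries atrial transcripts, was far below its group for Etfb (391.7 CPM), Echs1 (233.2 CPM), Acaa2 (613.1 CPM) and Decr1 (323 CPM) and far above it for Ucp2 (72.52 CPM). Chow renin 1, also an atrial library, was far below its group for Echs1 (206.7 CPM).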

How the results depend on the processing

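Counts of the 32 genes called changed by over 1.5 times as follows. Without chow renin 6 and high-fat control 4 they were 1 for renin on chow, 6 for diet alone, 15 for renin on the high-fat diet, 9 for diet under renin, 16 for the averaged diet and 21 for the averaged renin effect. With the clock score they were 0 for both hits, 0 for renin on the high-fat diet, 1 for the interaction, 2 for the averaged diet and 0 for the averaged renin effect. With the central nervous score they were 0 for diet under renin, the averaged diet and the averaged renin effect. Without the 5 atrial libraries they were 0 for diet under renin and 1 for the averaged diet. DESeq2 gave 2 for diet alone and 1 for the interaction, and limma on the signal 7 for the averaged renin effect. Fitting only the 2 groups gave 1 for renin on chow, 5 for renin on the high-fat diet and 5 for diet under renin. The share of all genes called is given above for only some of these fits, and the cause was not tested.

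Leaving out 1 library at a time gave 1 to 4 calls for both hits, 0 to 2 for renin on chow, 0 to 2 for diet alone, 5 to 12 for renin on the high-fat diet, 1 to 9 for diet under renin, 0 to 1 for the interaction, 5 to 13 for the averaged diet and 6 to 15 for the averaged renin effect. The sign changed for 2 estimates: Ehhadh for diet under renin with the central nervous score (0.0778) and Acaa1a for the averaged renin effect with the clock score (0.00928).

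The replicate block gave 5 calls for diet under renin, 4 for both hits, 7 for renin on the high-fat diet, 6 for the averaged diet and 13 for the averaged renin effect. Deviations from the group means correlated between same-numbered hearts with r from -0.23 to 0.42 (28 pairs, median 0.077). The median of the 136 other pairs between groups was -0.025. Of the 21 hearts, 7 correlated best with a heart of their own number. The labels do not say whether the numbers pair the hearts, and these values do not settle it. Chow control libraries were the shallowest.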
